A study of Zea mays subsp. mays with 2 samples.

Results

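Opaque11 (O11) binding was mapped in maize endosperm, and the sites described here are those that stood alone and tall. A peak was taken as solitary where no other summit lay within 10000 bp on the same chromosome, the summit being the base of highest read coverage in a peak. It was taken as tall where its pileup, the number of reads stacked at the summit, was 20 to 99. On chromosomes 1 to 10 of the deposited list there were 1963 such sites, among 5257 solitary peaks, 8967 chromosomal peaks and 9080 peaks in all. They were set against the 3276 solitary peaks with a pileup under 20, called low sites here. The remaining 18 solitary peaks had pileups over 99. The sites were thus chosen by pileup and by distance between summits, and both are given as a description only.

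O11 is a basic helix-loop-helix transcription factor, a class of protein that binds DNA as a dimer, mostly at short palindromic E-box elements. It is made in the endosperm, the tissue of the kernel that fills with starch and storage protein, and kernels that lose it are small and opaque. Its Arabidopsis relative ZHOUPI acts in the breakdown of the endosperm. Chromatin immunoprecipitation with sequencing, which recovers the DNA that a protein is bound to, was done with a rabbit antibody raised against the full-length protein. One library came from wild type kernels and 1 from o11/o11 mutant kernels, both at 15 days after pollination. The mutant, described as having no O11 protein, was the negative control according to the series design text. No column of the list names a library, so the values are read as wild type over mutant on that ground. The labels call the tissue kernel and the protocol speaks of endosperm. How many ears or kernels went into a library is not stated.

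With 1 library per genotype there was no replicate check and no test of any difference between genotypes. Shares of sites carry Wilson 95% intervals, medians carry 95% intervals from the order of the values, and single pileups and densities carry exact Poisson intervals. All cover counting error only and treat sites as independent. Library totals are not part of the list, so the depth of the libraries is unknown.

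Tall solitary sites had modest pileups for the most part. Their median pileup was 26 reads, with quartiles of 22 and 32, and their highest was 93. Low sites had a median of 13 reads, with quartiles of 11 and 16. Pileups of 20 to 24 made up 822 of the tall sites (41.9%), 25 to 29 made up 490 (24.96%) and 30 to 39 made up 428 (21.8%). Another 193 (9.83%) reached 40 to 59, and 30 (1.53%) reached 60 or more. The lower limit cuts through a smooth distribution. Just inside it, 178 sites had 20 reads, a median length of 342.5 bp and a median fold of 5.84. Just outside it, 205 sites had 19 reads, a median length of 358 bp and a median fold of 6.65. A count of 20 has a 95% Poisson interval of 12.2 to 30.9 reads, so sites near the limit could fall on either side of it.

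The tallest site stood on chromosome 3, from 218617438 to 218617798. Its 93 reads (95% interval 75.1 to 113.9) lay over a local background of 31.6 reads, and its fold enrichment was only 2.88. Fold enrichment compares the pileup with the local background after 1 read is added to each. The background is the scaled read level of the mutant library around the site. Chromosome 1 held the next, from 15444370 to 15445066, with 91 reads over 9.67 and a fold of 8.62. On chromosome 8 the tallest site, at 79890423, had 82 reads over a background of 24.6 and a fold of 3.24. Chromosome 7 was alike, with 71 reads over 22.8 at 129608424 and a fold of 3.02, and chromosome 2 had 62 reads over 14.1 at 141573834 with a fold of 4.18. These 4 sites of chromosomes 2, 3, 7 and 8 combine a tall signal in wild type with a raised signal in the mutant.

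The tallest sites of chromosomes 4, 5 and 6 were enriched more strongly. On chromosome 6 the site from 165099861 to 165100427 had 79 reads (62.5 to 98.5) over 1.06 reads and a fold of 38.9. The chromosome 4 maximum, at 167010336, had 78 reads over 2.64, the median background of tall sites, and was enriched 21.7-fold. That of chromosome 5, at 36976039, had 81 reads over 4.06 and was enriched 16.2-fold. Chromosomes 9 and 10 had the lowest maxima, 58 reads at 63404312 (fold 7.53) and 49 reads at 108870608 (fold 13.3). Height and enrichment thus ranked the sites differently.

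Of the 10 tall solitary sites with the largest fold, chromosome 6 held 4. Besides the site at 165100149, these were at 106213557 (61 reads, fold 30.1), 65460556 (57 reads, fold 26.7) and 155434378 (68 reads, fold 23.3). Chromosome 3 held 2, at 174803193 (87 reads, fold 32.1) and 1600367 (83 reads, fold 30.5). Chromosome 2 held 2, at 215698674 (47 reads, fold 23.3) and 184658648 (45 reads, fold 22.4). The others were at 261033670 on chromosome 1 (57 reads, fold 28.2) and at 173507279 on chromosome 7 (46 reads, fold 22.9). Their isolation varied widely. The chromosome 6 site at 65460556 was 497.0 kb from the nearest summit of any kind, while the one at 106213557 had a summit 13.3 kb away.

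Tall sites stood over a higher mutant background than low sites. The median background was 2.64 reads under tall sites (quartiles 1.76 and 3.52) and 1.26 reads under low sites (1.06 and 1.85). The background has a lower limit of 1.06 reads in this list. It was at that limit at 198 tall sites (10.1%, 95% interval 8.83 to 11.5%) and at 1345 low sites (41.1%, 39.4 to 42.8%). Tall sites were less often at the limit than low sites on 10 of 10 chromosomes. A low pileup can pass a peak caller only over a low background, so this contrast is tied to the pileup that chose the groups. The 3 most frequent background values above the limit lay 0.879 reads apart, which is taken as the scaled worth of 1 mutant read. The background of 161 tall sites lay at 3 such reads, that of 116 at 4 and that of 93 at 2 (whole to within 0.005).

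The median fold was 7.69 at tall sites, with quartiles of 5.87 and 10.7, and 5.36 at low sites, with quartiles of 4.73 and 6.32. Enrichment was 10-fold or more at 592 tall sites (30.2%) and at 0 of 3276 low sites, against 11.7% of all chromosomal peaks in the list. The pileup that chose the groups enters the fold, so nothing is read from these shares. All 198 tall sites at the background limit had a fold of at least 10, which follows from 20 reads over 1.06. Sites over 4 scaled mutant reads had a median fold of 5.76 at nearly the same median pileup, 25 reads against 24.5 at the limit.

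Peaks at tall sites were longer. The median length was 420 bp (95% interval 410 to 428) at tall sites and 313 bp (310 to 316) at low sites, a difference of 107 bp. The quartiles were 338 and 556 bp at tall sites and 264 and 398 bp at low sites. The shortest length in the list, 251 bp, was taken by 35 tall sites (1.78%, 1.28 to 2.47%) and by 578 low sites (17.6%, 16.4 to 18.99%). Lengths of 500 bp or more were found at 654 tall sites (33.3%, 31.3 to 35.4%) and 370 low sites (11.3%, 10.3 to 12.4%). The median was longer at tall sites on 10 of 10 chromosomes, where it ran from 385 bp on chromosome 7 to 455 bp on chromosome 8. Length and pileup are read from the same coverage, so the difference has no test.

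**Figure D1:**
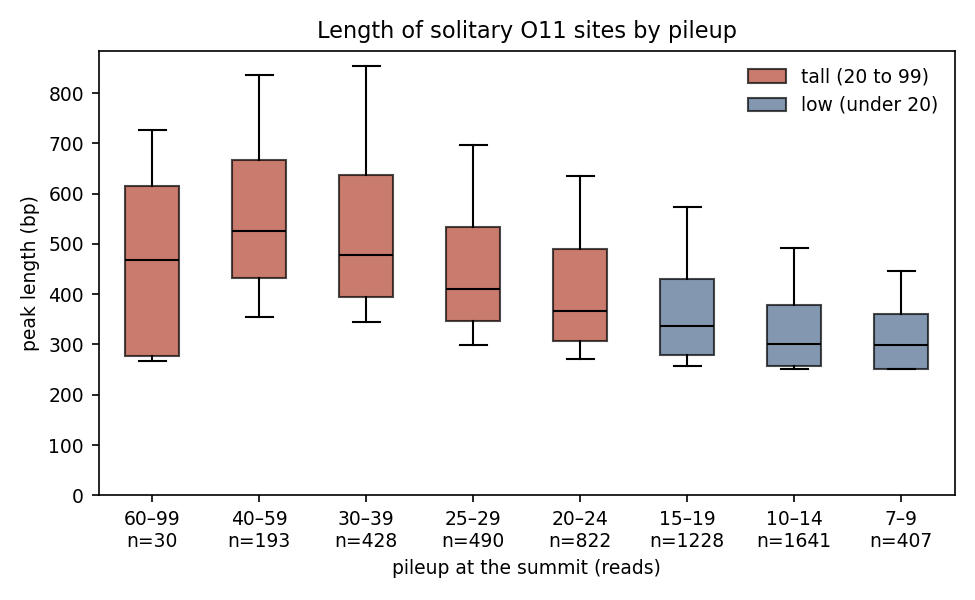
Peak length in bp of solitary sites against pileup at the summit in reads, for tall sites (red) and low sites (blue); boxes span the quartiles with the median as a line, and whiskers reach the 10th and 90th percentiles. The median reaches 526 bp at 40 to 59 reads, is 367 bp at 20 to 24 reads and 299 bp at 7 to 9 reads, while the box at 60 to 99 reads reaches down to 278 bp.

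Length did not step at the limit of 20 reads but grew along the pileup scale. The median was 367 bp at 20 to 24 reads, 409.5 bp at 25 to 29, 478.5 bp at 30 to 39 and 526 bp at 40 to 59. Among low sites it was 299 bp at 7 to 9 reads, 301 bp at 10 to 14 and 337 bp at 15 to 19. The 30 sites with 60 to 99 reads broke the order, with a median of 467.5 bp (284 to 589) and a median background of 5.83 reads. Across tall sites, length went with pileup (Spearman's rho 0.33, Pearson's r 0.22, n = 1963 sites of the same 2 libraries).

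At a matched pileup, sites over the lowest background were the longer ones, at tall sites and at the upper end of the low ones. With 20 to 24 reads, the 99 sites at the background limit had a median length of 481 bp (418 to 520) and the 723 above it had 355 bp (346 to 368). With 25 to 29 reads the medians were 566 bp (472 to 647) over 44 sites and 394.5 bp (384 to 414) over 446 sites. With 30 to 39 reads they were 608 bp (546 to 673) over 45 sites and 466 bp (446 to 493) over 383 sites. In each of these bands the 2 intervals stood apart. With 40 to 59 reads they overlapped, at 650.5 bp (372 to 835) over 8 sites and 521 bp (487 to 557) over 185 sites. Low sites of 15 to 19 reads behaved like most tall bands, with 378 bp (359 to 397) at the limit and 331 bp (320 to 337) above it. At 10 to 14 reads the medians were 301 bp (293 to 309) and 302.5 bp (295 to 310), with overlapping intervals. Length is the stretch over the caller threshold, and a given pileup passes a caller more easily over a low background. The contrast is thus tied to the peak calling and was not tested.

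The longest tall solitary site lay on chromosome 6, from 162278263 to 162281138. It spanned 2876 bp with a pileup of 34 reads over 1.06, and its summit lay 2343 bp from its lower edge, far off the middle. The next were 1734 bp on chromosome 6 from 111546249 and 1713 bp on chromosome 2 from 208794328, with 30 and 36 reads. All 3 had a background at the limit. Sites of 1000 bp or more numbered 58 (2.95%, 2.29 to 3.801%) among tall sites and 15 (0.458%, 0.278 to 0.754%) among low sites. At the other end, tall sites of 251 bp included those starting at 22311621, 50103792 and 117173595 on chromosome 1, with 22, 22 and 25 reads over 2.87, 3.49 and 6.15.

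Summits sat nearer the middle of the peak at tall sites. Their distance from the middle, as a part of the peak length (0 at the middle, 0.5 at an edge), had a median of 0.083 (0.077 to 0.088) at tall sites and 0.124 (0.117 to 0.128) at low sites. It was smaller at tall sites on 10 of 10 chromosomes of the same libraries. The summit and the pileup that chose the groups are read from the same coverage, so this difference has no test. Within 10% of the length from the middle lay the summits of 1115 tall sites (56.8%, 54.6 to 58.98%) and 1362 low sites (41.6%, 39.9 to 43.3%). More than 0.4 of the length from the middle lay 3 tall summits (0.153%, 0.0520 to 0.448%) and 77 low ones (2.35%, 1.88 to 2.93%). Along the pileup bands the median distance was 0.096 at 20 to 24 reads, 0.082 at 25 to 29, 0.071 at 30 to 39 and 0.056 at 40 to 59. Among low sites it was 0.167 at 7 to 9 reads, 0.131 at 10 to 14 and 0.104 at 15 to 19.

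**Figure D2:**
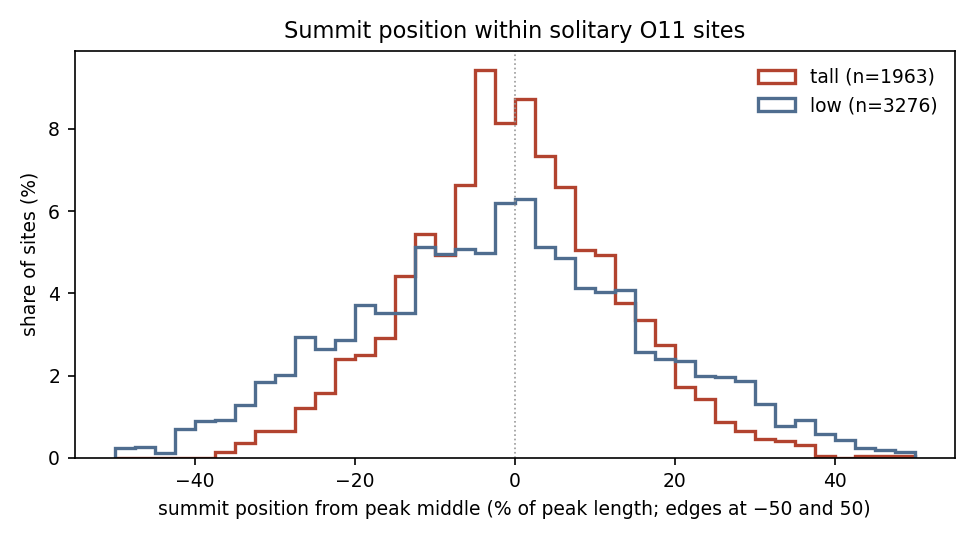
Position of the summit within the peak, in percent of peak length from the middle (0 at the middle, 50 at either edge), as the share of 1963 tall (red) and 3276 low (blue) solitary sites in bins of equal width. The tall distribution is the narrower one, with 94.0% of tall and 80.5% of low summits within 25% of the length from the middle.

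Counted in bases, the summit of a tall site lay a median of 177 bp (173 to 179) from the nearer edge, against 119 bp (117 to 121) for a low site. That distance was 100 to 250 bp at 1626 tall sites (82.8%) and 2145 low sites (65.5%), and under 50 bp at 9 tall sites (0.458%) and 215 low sites (6.56%). The relation to length was not a straight one. Tall sites under 300 bp had a median relative distance of 0.111, those from 300 to under 400 bp 0.063 and those from 400 to under 500 bp 0.039. It was then 0.121 from 500 to under 700 bp and 0.184 at 700 bp or more. Low sites followed the same course, with 0.139, 0.101, 0.075, 0.189 and 0.243 in those bins. At every length the tall sites were the more central.

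Neither edge was preferred clearly at tall sites. The summit was nearer the lower coordinate at 1010 of them (51.5%, 49.2 to 53.7%) and nearer the higher one at 944 (48.1%, 45.9 to 50.3%). At low sites these counts were 1762 (53.8%, 52.1 to 55.5%) and 1497 (45.7%, 44.0 to 47.4%). The intervals of the 2 low shares do not meet, and those of the tall shares do.

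Tall peaks also differed in form by whether they stood alone. Within 10 kb of another summit lay 1120 further peaks of 20 to 99 reads, called grouped here. Solitary tall sites had a median length of 420 bp (410 to 428), against 481.5 bp (468 to 504) for grouped ones, at median pileups of 26 and 25 reads. The median background was 2.64 reads at solitary and 2.03 reads at grouped tall peaks, and 10.1% and 18.4% of them lay at its limit. Length differed also above the limit. There solitary tall sites had a median of 409 bp (401 to 420) and grouped ones 458.5 bp (446 to 470). With 25 to 29 reads above the limit, the medians were 394.5 bp (384 to 414) and 470 bp (441 to 518). Intervals also stood apart there at 20 to 24 and 30 to 39 reads. At 40 to 59 reads they overlapped, at 521 bp (487 to 557) and 587 bp (510 to 651). At the limit the medians were 536.5 bp (484 to 578) and 617 bp (588 to 681). Within each pileup band up to 59 reads at the limit, the intervals overlapped. The relative summit distance was 0.083 (0.077 to 0.088) at solitary and 0.091 (0.084 to 0.096) at grouped tall peaks, with overlapping intervals.

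Peaks of 20 to 99 reads were solitary more often than weaker ones. Of 3083 such peaks 1963 were solitary (63.7%, 62.0 to 65.4%), and of 5855 peaks under 20 reads 3276 were (56.0%, 54.7 to 57.2%). The intervals stood apart on 3 of 10 chromosomes (3, 6 and 8) and overlapped on the others. On chromosome 7 the shares were all but equal, with 153 of 255 tall and 199 of 332 low peaks solitary, and on chromosome 4 they were 77.3% (72.1 to 81.8%) and 77.7% (72.7 to 82.0%). The gap was widest on chromosome 8, with 62.2% (56.8 to 67.4%) and 47.1% (43.6 to 50.6%). Solitary shares also differed by background. Among peaks at the background limit 49.0% (44.2 to 53.9%) of tall and 49.1% (47.2 to 51.0%) of low peaks were solitary. Above the limit the shares were 65.9% (64.1 to 67.7%) and 62.0% (60.3 to 63.7%), with intervals apart. The part of the background in the difference between tall and low peaks was not tested.

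The median distance from a tall solitary site to the next one on its chromosome was 601 kb (555 to 640), with quartiles of 222 and 1292 kb. Low sites, being more numerous, followed one another at 285 kb (268 to 305). Over 1 Mb passed before the next tall site in 651 of 1953 intervals (33.3%, 31.3 to 35.5%), and before the next low site in 583 of 3266 (17.9%, 16.6 to 19.2%). Spacings under 100 kb made up 12.7% (11.3 to 14.2%) of tall and 25.3% (23.8 to 26.8%) of low intervals. Relative to their means the tall spacings were the less uneven. Their SD was 1.29 times their mean of 1044 kb, and that of low sites 1.56 times a mean of 626 kb. Counting any peak of at least 20 reads as the next one, grouped peaks included, the median spacing was 436 kb (402 to 462).

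**Figure D3:**
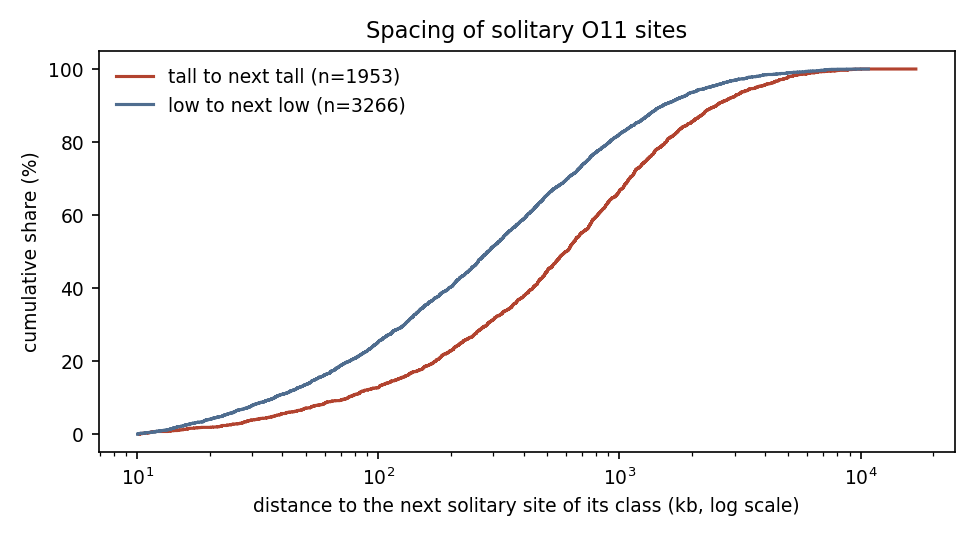
Cumulative share in percent of the distances in kb (log axis) from each tall solitary site to the next tall one (red, n = 1953) and from each low solitary site to the next low one (blue, n = 3266). The tall curve lies to the right, with medians of 601 kb for tall and 285 kb for low sites.

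The closest neighbouring tall solitary sites lay just over the limit that the rule sets. On chromosome 1 summits at 197770258 and 197780433 were 10.2 kb apart, with 26 and 24 reads. On chromosome 9 those at 14793020 and 14803273 were 10.3 kb apart, with 28 and 27 reads. Just outside the rule, a chromosome 6 peak of 24 reads at 167900648 had its neighbour at 9.89 kb. The longest stretch with no tall solitary site was on chromosome 7, from 59827366 to 76775428, or 16.9 Mb. It held 5 other peaks, 3 of them low solitary sites and 2 grouped peaks of at least 20 reads. On chromosome 2 the stretch from 57333356 to 67343369 spanned 10.01 Mb but held 47 peaks, 20 low solitary and 27 grouped, 5 of the grouped ones with at least 20 reads. A second such stretch on chromosome 2, from 141573834 to 150978667, held 32 peaks in 9.40 Mb. On chromosomes 6 and 1, stretches of 9.23 Mb from 11341502 and 8.91 Mb from 129238212 held 4 and 2 peaks. These 5 longest gaps were thus of 2 kinds, empty of nearly all peaks or filled with low and grouped ones.

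To the nearest summit of any kind, tall solitary sites had a median of 94.7 kb (87.4 to 101.4) and low ones 68.6 kb (64.2 to 71.8). That neighbour was another tall solitary site for 732 of the tall sites (37.3%, 35.2 to 39.5%) and a tall solitary site for 830 of the low ones (25.3%, 23.9 to 26.9%). It was a low solitary site for 871 tall sites (44.4%, 42.2 to 46.6%) and 1757 low sites (53.6%, 51.9 to 55.3%). A grouped peak was nearest for 17.9% (16.3 to 19.7%) of tall and 20.9% (19.6 to 22.4%) of low sites. Of all chromosomal peaks, 21.9% were tall solitary, 36.5% low solitary and 41.4% grouped. Solitary sites of each class thus had their own class as the nearest neighbour more often than the other class did. Even so, the nearest neighbour of a tall site was more often low than tall. The 5 most isolated tall sites had no summit within 3451 kb (chromosome 8, 49372964), 3164 kb (chromosome 7, 76775428), 2660 kb (chromosome 4, 108109451), 2412 kb (chromosome 2, 84188176) and 1988 kb (chromosome 9, 41860448). They were not high, with 22, 23, 21, 28 and 20 reads and folds of 6.31, 6.21, 5.27, 7.33 and 5.43. Among tall sites the distance to the nearest summit did not go with pileup (rho 0.01, r -0.02, n = 1963).

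Density of tall solitary sites varied less from chromosome to chromosome than that of low sites. It was 0.955 per Mb over all 10, from 0.709 (0.580 to 0.857) on chromosome 10 to 1.16 (1.02 to 1.31) on chromosome 5, a ratio of 1.64. Low sites had 1.59 per Mb over all and ranged from 0.980 on chromosome 4 to 2.20 on chromosome 2, a ratio of 2.24. Chromosome 8 (1.12 per Mb), chromosome 1 (1.08) and chromosome 3 (1.03) followed chromosome 5 closely, with overlapping intervals. Chromosomes 9, 4, 6 and 7 lay between 0.944 and 0.866 and could not be told from one another. Chromosome 2, at 0.728 (0.624 to 0.845), was near chromosome 10. Chromosome 1 held the most tall sites, 326, and chromosome 10 the fewest, 106. Each chromosome was measured as far as its last peak.

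**Figure D4:**
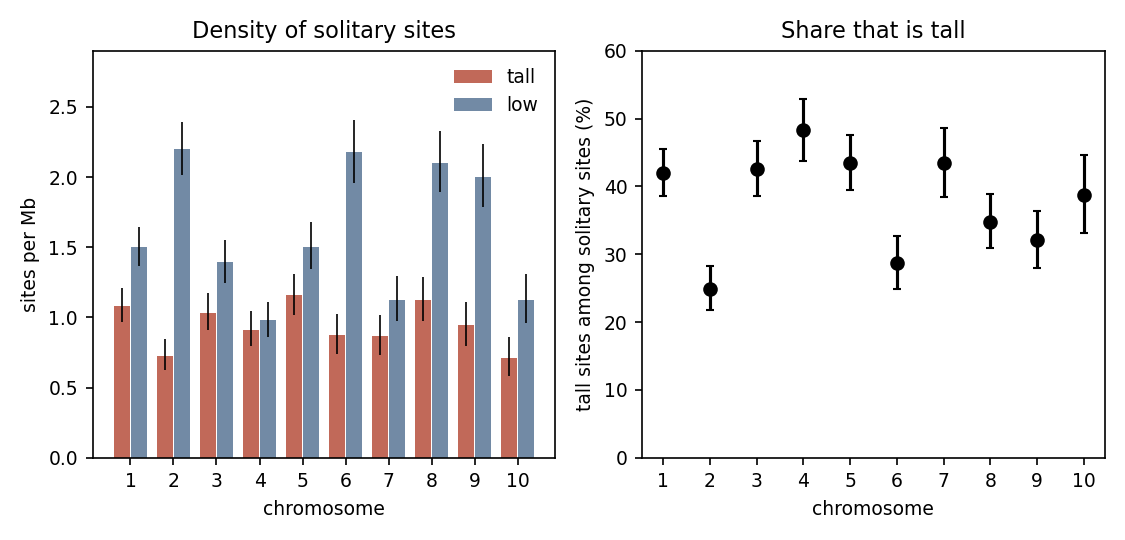
Left, tall (red) and low (blue) solitary sites per Mb on each chromosome with exact Poisson 95% intervals; right, tall sites in percent of tall and low solitary sites together, with Wilson 95% intervals. Chromosomes 2 (24.9%) and 6 (28.7%) have the lowest shares of tall sites and chromosome 4 (48.3%) the highest.

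The share of solitary sites that were tall differed more than the density. Over all chromosomes it was 37.5% (36.2 to 38.8%). It was 48.3% (43.7 to 52.8%) on chromosome 4, 43.5% on chromosomes 5 and 7, 42.6% on chromosome 3 and 42.0% on chromosome 1. On chromosome 2 it was 24.9% (21.8 to 28.2%), on chromosome 6 28.7% (24.95 to 32.7%), on chromosome 9 32.0% (27.9 to 36.4%) and on chromosome 8 34.8% (31.0 to 38.8%). Chromosome 10 had 38.7% (33.1 to 44.6%). The share of low sites at the background limit was 58.8% on chromosome 2, 53.8% on chromosome 9 and 48.9% on chromosome 6, and 20.7% on chromosome 4. Above the limit alone, the tall share ran from 39.3% (34.3 to 44.4%) on chromosome 2 and 40.3% (35.0 to 45.8%) on chromosome 6 to 53.1% (48.2 to 57.9%) on chromosome 4. The order of these 3 chromosomes was kept over a narrower range. The part of the background in the remaining difference was not tested.

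The chromosomes were cut into 5 equal parts. Over all 10 together, tall solitary sites were most frequent in the last part, but less so than low sites. They were sparse in the second and the middle part. The last part held 535 tall sites (27.3%, 25.3 to 29.3%) and 1073 low sites (32.8%, 31.2 to 34.4%). The tall share there was below the low share on 9 of 10 chromosomes. The intervals stood apart only on chromosome 1, with 24.2% (19.9 to 29.2%) of tall and 37.0% (32.7 to 41.6%) of low sites. The second part held 262 tall sites (13.3%, 11.9 to 14.9%) and 362 low sites (11.1%, 10.02 to 12.2%). There the tall share was the higher on 9 of 10 chromosomes, with overlapping intervals on all of them. The middle part held 14.2% (12.7 to 15.8%) of tall and 13.9% (12.7 to 15.1%) of low sites. The first held 21.5% and 20.2%, and the fourth 23.7% and 22.1%, all with overlapping intervals. The second and the middle part each held under 20% of the tall sites on 10 of 10 chromosomes. Above the background limit the last part held 26.1% (24.1 to 28.2%) of tall and 30.5% (28.5 to 32.6%) of low sites.

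**Figure D5:**
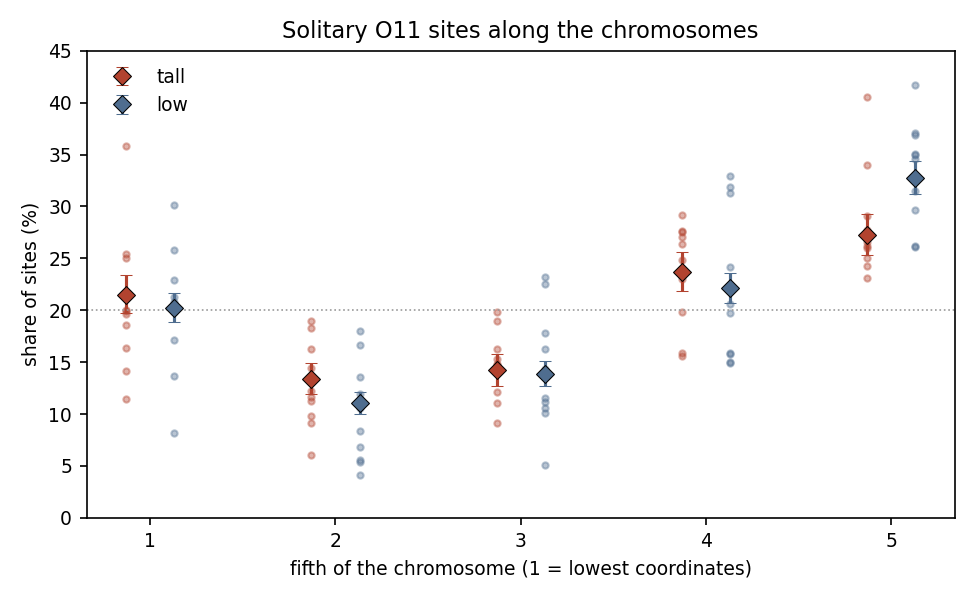
Share in percent of tall (red) and low (blue) solitary sites in each of 5 equal parts of the chromosomes, numbered from the lowest coordinates; diamonds are all chromosomes with Wilson 95% intervals, dots are single chromosomes and the dotted line marks 20%. In the last part the share is 27.3% for tall and 32.8% for low sites.

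Single chromosomes departed from this course. On chromosome 2 the first part held 35.8% of the tall sites, more than its last part with 26.6%. Chromosome 1 also had more in its first part, 25.5% against 24.2% in the last. The fourth part exceeded the last on chromosomes 3 (29.2% and 25%), 4 (27.6% and 23.1%) and 8 (27.6% and 26.0%). The intervals overlapped in each case. On chromosome 7 the last part held 40.5%, the highest share of any part on any chromosome, and the second and middle parts 9.15% each. Chromosome 6 had its lowest share in the first part, 11.5%. Chromosome 9 had the lowest share of all, 6.08%, in its second part. Chromosome 10 was even from the middle to the fourth part, with 19.8% in each.

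Tall sites of the outer and inner parts also differed in form and background. Median length was 444 bp in the last part and 438 bp in the fourth, 412 bp in the first, 392.5 bp in the second and 384 bp in the middle. Low sites were also longest in the last part, with medians of 322, 315, 312, 294.5 and 309 bp in the same order of parts. No intervals were computed for these lengths, so their differences between parts are given as values only. At tall sites the median pileup was 25 or 26 reads in every part. The median background was 2.47 reads in the last part and 3.04 in the middle, and the median fold was 8.40 and 6.89. Of tall sites, 14.02% lay at the background limit in the last part, 11.8% in the fourth and 10.7% in the first, against 3.44% in the second and 5.02% in the middle. Of low sites, 45.1% lay at the limit in the last part, 42.1% in the fourth, 35.6% in the first, 33.4% in the second and 43.8% in the middle. Both classes thus had their highest share in the last part, and the second part was the lowest for both, while the middle part was low for tall sites and not for low ones. Of all sites at the limit, the last part held 37.9% (31.4 to 44.8%) of the tall and 36.0% (33.5 to 38.6%) of the low ones, and the second held 4.55% (2.41 to 8.41%) and 8.996% (7.58 to 10.6%).

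In windows of 5 Mb, tall solitary sites were spread more evenly than low ones. The median window held 4 tall sites (quartiles 2 and 7) and 6 low sites (3 and 11). The variance of the count was 1.89 times its mean for tall sites and 4.71 times for low sites, over 416 windows. No window held more than 17 tall sites, while the fullest held 40 low ones, and 15 windows had no tall site. The fullest window of tall sites was 120 to 125 Mb on chromosome 8, with 17 tall and 9 low sites. On the same chromosome the window from 130 to 135 Mb held 4 tall and 40 low sites, the most low sites of any window. Chromosome 7 from 160 to 165 Mb held 15 tall and 14 low sites. Each of the next windows held 13 tall sites. Chromosome 3 from 180 to 185 Mb had 17 low sites beside them, chromosome 5 from 190 to 195 Mb had 13, and chromosome 7 from 145 to 150 Mb had 7. Across windows the 2 counts went together weakly (rho 0.32, r 0.26, n = 416 windows of the same 2 libraries).

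Windows were also classed by their weak peaks. Low solitary sites are among those peaks, so the shares below are in part fixed by the classes and are given as values only. In 87 windows with at least 10 peaks under 20 reads, of which at least 50% lay at the background limit, there were 4.63 tall and 14.8 low solitary sites per window. In 112 windows with at least 10 such weak peaks but a lower share at the limit, there were 6.29 tall and 10.8 low sites. The tall share of solitary sites was 23.9% (21.9 to 25.98%) in the first kind and 36.9% (34.8 to 39.1%) in the other. The remaining 217 windows, with fewer than 10 weak peaks, had 3.94 tall and 3.63 low sites each, and held 43.6% of all tall and 24.1% of all low sites. Their tall share, 52.0% (49.6 to 54.4%), is given with the same limit.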

How the data were processed

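Chromatin immunoprecipitation libraries of wild type and o11 mutant kernels (1 each) were compared by the authors, who deposited 1 list of peaks and 1 of summits. Alignment with Bowtie2 and peak calling with MACS2 2.0.10 are on record, per the submitters' processing notes, with no settings. Per the file headers, the deposited values of a peak are its pileup (coverage signal at the summit), its fold enrichment (ratio to the local background) and its −log10 p-value and q-value. The peak names carry the tags v3 and q0.01. Of the genome build nothing is stated (not given in the sources used here). Positions stand as deposited, counted from 1. Genes and sequence at the sites were not analysed here.

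The background was solved from pileup and fold. The Poisson tail of the pileup over it differed from the deposited −log10 p by at most 0.000209. Sites within 0.001 of the lowest background were taken as at the limit. Each chromosome was taken to end with its last peak. Python 3.11.15, pandas 2.3.3 and scipy 1.17.1 were used, and the neighbour search and the median interval were tested on simulated data. Alternatives changed the pileup limits, the solitary distance, the peaks entering and the extent of a chromosome. The rule of the sites and the lists was chosen with earlier results of these data known. Sites named are the tallest of each chromosome, the 10 with the largest fold, the longest, shortest and most isolated, those at the limits, the longest gaps and the fullest windows. The window from 130 to 135 Mb on chromosome 8, the closest pairs and single chromosome parts were chosen after their values were seen. So were the splits by background and the comparison with grouped peaks.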

Additional observations from a re-analysis of the deposited data

How the results depend on the processing

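The alternatives gave 84 values for 10 results. Of these values, 56 stayed within 1.5 times a count or within the 95% interval of the value reported. The other 28 moved out of that range. Only the length difference between tall and low sites could reverse, and it stayed positive under every alternative run for it. The other results are counts, medians, shares or a ratio and cannot change sign. For summit distance, spacing and the last part, these alternatives gave values for tall sites only. Their order against low sites was not tested there. The shares of tall sites in the middle and in the last part, and the ratio of the densest to the sparsest chromosome, stayed within their intervals under all alternatives run for them. The chromosomes behind that ratio did not all stay the same. The densest was chromosome 8 in place of 5 with tall sites from a pileup of 30 and with −log10 q at or above the median, and the sparsest was chromosome 2 in place of 10 with backgrounds above the limit. With tall sites from a pileup of 15, there were 3191 sites, with a median length of 385 bp (85 bp above low sites), a relative summit distance of 0.092, a spacing of 368 kb, 13.1% at the background limit and 60.9% of solitary sites tall. With tall sites from a pileup of 30, these were 651 sites, 492 bp (179 bp above low sites), 0.067, 1879 kb, 8.45% and 16.6% (of tall and low sites together). Low sites were those under 15 reads in the run from 15. In the run from 30 they stayed under 20 reads, and solitary sites from 20 to under 30 reads were in neither group. The length differences and tall shares of these runs thus rest on unlike low sites. With a fold of at least 5, median length was 437 bp, spacing 686 kb and the tall share 44.99%. With −log10 q at or above the median they were 433 bp (87 bp above low sites), 652 kb and 66.5%. With only backgrounds above the limit they were 409 bp, 646 kb and 47.8%. Against low sites of 15 to 19 reads the length difference was 83 bp. Spacing was 507 kb with solitary set at 5000 bp, 687 kb at 20000 bp, and 436 kb to any peak of at least 20 reads. Fewer or more sites change spacings and tall shares by construction; the cause of the other moves was not tested. No paired analysis was possible because there was only 1 library per genotype. Effects of read depth on the list were not tested.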

Other observations

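A small set of tall solitary sites stood on sequence that was also read often in the mutant library. The background was at least 10 reads at 24 of the 1963 tall sites (1.22%, 95% interval 0.823 to 1.81%), on 8 chromosomes, and at 0 of 3276 low sites. The 0 is tied to the pileup limit that defined low sites, since a pileup under 20 is little enriched over 10 reads. The highest background of any low site was 5.27 reads. These 24 had pileups of 30 to 93 reads, with a median of 60.5, and folds of only 2.19 to 5.31. They were short, with a median length of 276.5 bp (267 to 381) and none over 605 bp, against 420 bp for all tall sites. Their summits were a median of 0.130 of the length from the middle, against 0.083 for all tall sites. A high background lowers the fold, so the folds are given as values only.

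Most of the 18 solitary peaks with pileups over 99 likewise had a high background and a low fold. Over all 18, folds ran from 1.62 to 12.8 and lengths from 255 to 1981 bp. The median was 196 reads for the pileup and 80.0 reads for the background, the median fold was 2.33 and the median length 304.5 bp (271 to 405). Just past the upper limit stood a chromosome 4 peak with 102 reads at 189375819, which differed from most of these in its background of 7.03 reads and its fold of 12.8. A chromosome 7 peak with 102 reads at 150247689 had a fold of 3.34 over a background of 29.9 reads.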
